A study of Mus musculus with 2 samples.

Results

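The genes described here are 36 genes of the cell cycle, fixed by symbol, out of 32285 gene identifiers listed. They comprised 12 genes that act in S phase, 22 that act in mitosis, and Hmgb2 and Stmn1, which are expressed at both stages. All 36 were found in the data and all 36 had at least 20 unique molecular identifiers (UMIs, each standing for 1 captured RNA molecule) in the 2 libraries together.

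Kidneys of male wildtype C57BL/6J mice, 19 weeks of age, were studied by single cell RNA sequencing (scRNAseq). The control library came from an uninjured contralateral kidney. The ischemia library came from a kidney that underwent 27 minutes of ischemia and 24 hours of reperfusion, a model of acute kidney injury (AKI). With 1 library per condition there is no replicate and no test of the condition, so differences are between these 2 libraries. Each library came from 1 kidney, and whether both kidneys were of the same mouse was not stated.

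A dividing cell first licenses its DNA for replication by loading the ring of MCM proteins, then copies it with the help of the PCNA clamp and of enzymes that supply deoxynucleotides. It then builds a spindle under cyclin B and CDK1, aligns its chromosomes under a checkpoint and separates them. Most cells of the adult kidney tubule are quiescent, and tubule cells are known to re-enter the cycle after AKI. Because replication genes can be induced without a later division, S phase and mitosis genes were summed apart.

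After filtering, 12586 control and 13116 ischemia cells were kept, with a median of 3839 and 2138.5 UMIs per cell and 124679362 and 128733541 UMIs in all. Of the deposited barcodes 88 occurred in both libraries, and 58 were kept in both. Cells were clustered with the cell cycle genes left out of the clustering, and clusters were named from marker genes with the ending "-like". These gave 13 named types and 3 clusters without a name, the largest of which held 11085 cells of low depth. Levels are given in CPM, the UMIs of a gene scaled by the total UMIs of the same cells, and intervals are exact 95% limits that cover counting error only, not the spread between cells or animals. A gene was called past 2-fold when its ratio was at least 2 or at most 0.5 and its interval excluded 1. Genes were tested with at least 20 UMIs in the 2 libraries together. A gene that reaches this number only through 1 library can thus be called higher there but not lower. The median ratio over all genes with 20 UMIs was 1.10.

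The 2 gene groups are usually controlled through different promoter elements: E2F sites in S phase genes, and a CHR element beside CCAAT boxes in mitosis genes. RefSeq promoter windows (build GRCm38.p6, 250 bases before to 50 after the start) were at hand for 31 of the 36 genes, in 33 windows. Searched on both strands, the E2F letters TTCCCGC or TTGGCGC were in 58.3% of the 12 windows of S phase genes, in 15% of the 20 windows of mitosis genes and in 6.81% of all 32851 windows. The CHR letters TTTGAA or TTCGAA were in 16.7%, 80.0% and 19.2% of the same windows. The letters CCAAT were in 83.3%, 90.0% and 37.4%. In Ccnb1 and in Mcm7 an E2F match and a CCAAT match shared bases. A match describes letters, not a bound site.

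To show this difference, 3 S phase promoters and 3 mitosis promoters that held such letters are printed, each as the 200 bases that end just before the start, 5′ to 3′ on the gene's strand. Capitals mark the E2F, CHR and CCAAT letters on either strand. Mcm5 lies at chr8:75109309-75109508 (plus strand), Mcm6 at chr1:128359706-128359905 (minus), Rrm1 at chr7:102441495-102441694 (plus), Mki67 at chr7:135716380-135716579 (minus), Cdk1 at chr10:69352913-69353112 (minus) and Top2a at chr11:99024190-99024389 (minus).
Mcm5: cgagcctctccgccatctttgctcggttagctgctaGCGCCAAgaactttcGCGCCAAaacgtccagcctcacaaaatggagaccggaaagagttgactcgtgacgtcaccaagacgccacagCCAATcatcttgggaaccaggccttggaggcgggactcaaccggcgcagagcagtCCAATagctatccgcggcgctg
Mcm6: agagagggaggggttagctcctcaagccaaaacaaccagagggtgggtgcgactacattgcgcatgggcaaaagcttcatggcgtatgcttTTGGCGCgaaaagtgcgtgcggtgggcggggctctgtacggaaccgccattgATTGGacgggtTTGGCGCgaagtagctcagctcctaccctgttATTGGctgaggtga
Rrm1: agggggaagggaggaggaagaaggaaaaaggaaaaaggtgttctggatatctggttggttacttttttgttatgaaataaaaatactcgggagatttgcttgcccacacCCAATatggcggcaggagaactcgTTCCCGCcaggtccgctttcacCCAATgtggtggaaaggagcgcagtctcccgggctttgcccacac
Mki67: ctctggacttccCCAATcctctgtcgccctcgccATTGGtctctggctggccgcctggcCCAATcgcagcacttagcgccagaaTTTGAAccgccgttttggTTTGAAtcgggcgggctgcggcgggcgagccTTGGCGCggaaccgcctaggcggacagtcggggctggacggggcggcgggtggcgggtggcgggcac
Cdk1: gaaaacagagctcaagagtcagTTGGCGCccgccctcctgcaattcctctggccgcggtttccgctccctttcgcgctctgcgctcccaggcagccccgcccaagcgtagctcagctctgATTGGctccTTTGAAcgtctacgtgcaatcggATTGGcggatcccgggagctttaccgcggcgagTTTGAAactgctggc
Top2a: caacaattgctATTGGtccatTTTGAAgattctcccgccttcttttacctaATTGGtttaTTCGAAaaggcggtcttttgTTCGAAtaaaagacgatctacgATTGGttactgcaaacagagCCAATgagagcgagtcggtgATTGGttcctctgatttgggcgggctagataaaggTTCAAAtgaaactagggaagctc
Mcm5 and Mcm6 each held 2 E2F matches and no CHR match here, whereas Top2a held 4 CHR and 5 CCAAT matches and no E2F match. Cdk1 and Mki67 held all 3 kinds.

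Over all kept cells the genes of both stages were higher in the ischemic kidney. The 12 S phase genes together were at 73.6 CPM (72.1–75.2) in the control and 138 CPM (136–140) after ischemia, a ratio of 1.87 (1.83–1.92). The 22 mitosis genes together were at 17.4 CPM (16.7–18.2) and 41.3 CPM (40.2–42.4), a ratio of 2.37 (2.25–2.49). Of the 36 genes, 21 were past 2-fold higher, where 9.63% of the 18925 genes tested were, and 0 were past 2-fold lower, where 4.52% were. At a limit of 1.5-fold 32 were higher, where 18.0% of all genes were. The median ratio of the 36 genes was 2.14. The mitosis ratio depended strongly on how cells were weighted: it was 1.47 as a mean of each cell's own CPM and 1.31 after every cell was thinned to 1000 UMIs. The S phase ratio was 1.79 and 1.66 in the same 2 ways.

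Among the S phase genes, Pclaf, a PCNA-binding factor of replicating cells, stood furthest from 1. It had 0.610 CPM in the control and 4.74 CPM after ischemia, a ratio of 7.77 (6.12–10.0). All 6 subunits of the MCM helicase were past 2-fold. Mcm5 went from 1.64 to 6.42 CPM, a ratio of 3.92 (3.36–4.59), and Mcm3 from 2.16 to 8.11 CPM, a ratio of 3.76 (3.28–4.31). Mcm4 had a ratio of 2.85, Mcm2 of 2.21, Mcm6 of 2.12 and Mcm7 of 2.01. Rrm2, the S phase subunit of ribonucleotide reductase, was also past 2-fold, at 1.37 and 2.97 CPM. The other 4 S phase genes were not past 2-fold: Pcna, the replication clamp, with 22.9 and 38.1 CPM, Rrm1 with 7.06 and 10.3 CPM, Tk1, thymidine kinase, with 1.73 and 2.75 CPM, and Tyms, thymidylate synthase, with 15.2 and 18.1 CPM. The ratio of Tyms, 1.19 (1.12–1.27), was among the lowest of the 36.

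Of the mitosis genes 13 of 22 were past 2-fold higher. Cdk1, the mitotic kinase, had 0.417 CPM in the control and 2.56 CPM after ischemia, a ratio of 6.13 (4.56–8.38). Top2a, which untangles replicated DNA, had 0.914 and 5.48 CPM, a ratio of 6.00 (4.92–7.38). Mki67, the common proliferation marker, had 1.003 and 2.56 CPM, a ratio of 2.55 (2.07–3.16). Other genes past 2-fold were the kinases Aurkb (5.04), Plk1 (2.91), Bub1 (2.498) and Aurka (2.30), the spindle proteins Tpx2 (4.35) and Prc1 (4.33), Ube2c (3.52), which acts with the anaphase-promoting complex, Birc5 (2.85), the A cyclin Ccna2 (2.22) and the centromere motor Cenpe (2.04). The 9 that were not past 2-fold ranged from Nusap1, a spindle protein, at 1.18 (1.02–1.38) through Kif11, a spindle kinesin, at 1.33, Cenpa at 1.52, Cenpf at 1.62, Cdc20 at 1.67, Ccnb2 at 1.78, Bub1b at 1.87 and Ccnb1 at 1.92 to Kif23 at 1.99. Hmgb2, a chromatin protein, had 48.0 and 76.8 CPM, a ratio of 1.60, and Stmn1, which destabilizes microtubules, had 24.8 and 46.9 CPM, a ratio of 1.89. The plot of the 36 genes in both libraries shows these levels.

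**Figure D1:**
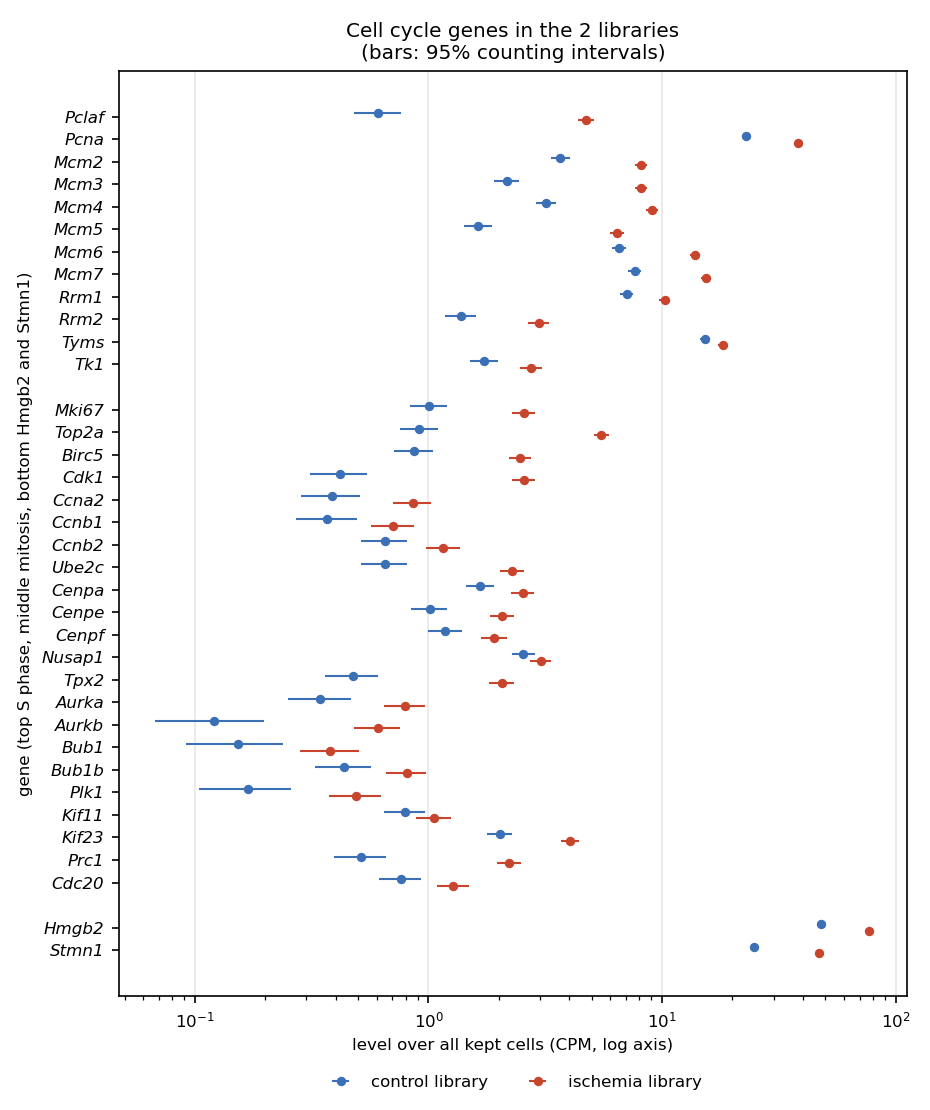
Level of each of the 36 genes over all kept cells (CPM, log axis) for control cells and for cells of the ischemic kidney, with 95% counting intervals as bars. Each gene's ischemia point lies to the right of its control point, by a ratio from 1.18 for Nusap1 to 7.77 for Pclaf.

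Cells that carried several mitosis genes at once were rare in both libraries. At least 3 of the 22 mitosis genes were detected in 42 control cells, 0.334% (0.241–0.451), and in 128 ischemia cells, 0.976% (0.815–1.16). At least 3 of the 12 S phase genes were detected in 700 control cells, 5.56%, and in 1281 ischemia cells, 9.77%. Cells with at least 3 of each numbered 24 and 107. Since deeper cells show more genes, all cells with at least 1000 UMIs were thinned to that number, which left out 3555 control and 5231 ischemia cells. At that depth 3 mitosis genes remained detectable in 6 of 9031 control cells and 8 of 7885 ischemia cells, so a difference in this share was not detectable. At least 1 S phase gene was then seen in 7.68% of control cells (7.14–8.25) and 11.8% of ischemia cells (11.1–12.5), and at least 1 mitosis gene in 1.63% (1.38–1.91) and 2.40% (2.07–2.76).

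The mitosis genes of the ischemic kidney came in largest part from 1 cell type. Cells of the collecting duct principal type (CD-PC-like, with Aqp2, Hsd11b2 and Fxyd4 among their leading genes) were 393 of the ischemia cells, yet held 2434 of the library's 5319 mitosis UMIs, 45.8%. In the control library 451 CD-PC-like cells held 170 of 2175 such UMIs, 7.82%. Without cells with at least 3 UMIs of the basal keratin Krt5 or of the macrophage gene C1qa, 388 ischemia CD-PC-like cells held 1500 mitosis UMIs, equal to 28.2% of the library's 5319. Proximal tubule-like (PT-like) cells held 31.6% of the control library's mitosis UMIs and 13.1% of the ischemia library's, and macrophage-like cells 12.7% and 14.98%. The plot of the mitosis UMIs by cell type shows the high share of the CD-PC-like cells in 1 library only.

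**Figure D2:**
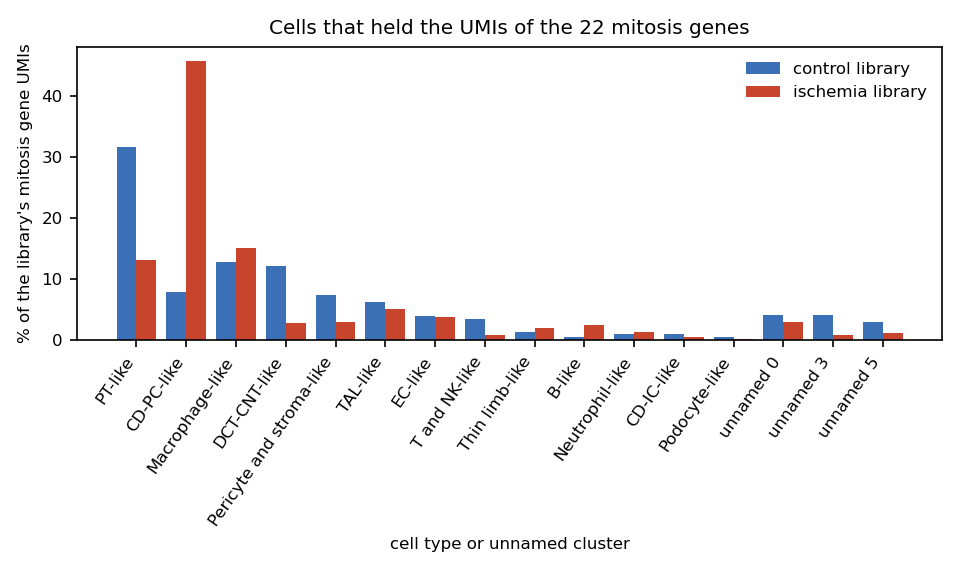
Share of each library's UMIs of the 22 mitosis genes (y axis, percent) held by each cell type or unnamed cluster (x axis), with 1 bar for the control library and 1 for the ischemia library. CD-PC-like cells held 7.82% in the control and 45.8% after ischemia.

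In CD-PC-like cells the mitosis genes together were at 18.2 CPM (15.6–21.2) in the control and 223 CPM (215–232) after ischemia, a ratio of 12.3 (10.5–14.4). The S phase genes were at 89.6 CPM (83.6–95.8) and 324 CPM (313–334), a ratio of 3.61 (3.35–3.90). Of the 36 genes 34 were past 2-fold higher, where 7.02% of the genes tested in these cells were, and 0 were lower, where 5.66% were. The genes that missed were Pcna, at 34.8 and 64.5 CPM with a ratio of 1.85, and Ccnb1, at 1.82 and 3.49 CPM with a ratio of 1.92. The median ratio was 8.77 for the 36 genes and 0.992 for all genes tested. Several of the 34, such as Plk1 with 0 and 37 UMIs and Ube2c with 1 and 185, reached the 20 UMIs for testing only through the ischemia library. Such genes could be called higher but not lower.

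Mki67 had 3 UMIs in control CD-PC-like cells and 183 in ischemia CD-PC-like cells, 0.321 and 16.8 CPM, a ratio of 52.3 (17.6–256). Top2a went from 14 to 440 UMIs, 1.4997 and 40.4 CPM, a ratio of 26.9 (15.9–49.7). Cdk1 went from 7 to 177 UMIs, 0.750 and 16.2 CPM, a ratio of 21.7 (10.3–54.7). For these 3 genes nearly all UMIs of the type were thus from the ischemia library. Plk1, a mitotic kinase, had 0 UMIs in the control cells and 37 in the ischemia cells. Its ratio was 10.6 with 3 UMIs allowed for the control group, and the lower limit of its interval was 8.17. Ube2c had 1 and 185 UMIs, a ratio of 158 (28.1–6294). Nusap1 and Kif11, the mitosis genes with the lowest ratios over all cells, had ratios of 7.78 and 6.85 in CD-PC-like cells. The other mitosis genes past 2-fold included several with 1 to 3 control UMIs, whose intervals are wide: Aurkb at 30.8 (5.19–1252), Tpx2 at 29.1 (9.69–144), Ccna2 at 27.4 (7.29–231), and Ccnb2 and Cdc20 both at 16.3 (5.30–81.3). Cenpf, Birc5 and Cenpe had 4 control UMIs each, and their intervals are wide too. Cenpf was at a ratio of 36.6 (14.0–136) and Cenpe at 17.6 (6.60–66.0). Birc5, an inhibitor of cell death that acts at the centromere, was at 36.2 (13.9–134). With more control UMIs, Prc1 was at 13.8, Cenpa, the centromeric histone, at 7.71 and the checkpoint kinase Bub1 at 4.57. Aurka was at 3.30, Bub1b at 2.57 and Kif23 at 2.29.

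Among the S phase genes in CD-PC-like cells, Pclaf went from 1.82 to 37.9 CPM, a ratio of 20.8 (12.8–36.1), Tk1 from 0.750 to 9.82 CPM, a ratio of 13.1, and Mcm3 from 1.93 to 23.6 CPM, a ratio of 12.2. Rrm2 went from 2.14 to 20.9 CPM, a ratio of 9.77, Mcm6 from 4.39 to 29.5 CPM, a ratio of 6.71, Tyms from 12.5 to 32.8 CPM, a ratio of 2.61, and Mcm2 from 7.39 to 16.6 CPM, a ratio of 2.25. The ratio was 7.75 for Mcm5, 4.67 for Mcm4, 3.98 for Mcm7 and 2.09 for Rrm1. The genes with the larger ratios were those with low levels in the control cells. Hmgb2 went from 75.4 to 180 CPM and Stmn1 from 13.7 to 58.0 CPM, ratios of 2.38 and 4.23.

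Most of the mitosis UMIs of these cells lay in few of them. Of the 393 ischemia CD-PC-like cells, 38 had at least 3 mitosis genes, 9.67%, against 7 of 451 control cells, 1.55%. Of the 38 cells, 36 also had at least 3 S phase genes. The 38 cells held 2320 mitosis UMIs, 43.6% of the whole ischemia library's, and 4 cells of that library alone held 25.4%. A single CD-PC-like cell with 148672 UMIs in all and 22 of 22 mitosis genes held 717, which was 13.5%. That cell also had 331 UMIs of the basal keratin Krt5, and its total lay just under the filter limit of 150000 UMIs. By number of genes, 11 of the 38 cells had at least 15 of the 22 mitosis genes, whereas 16 cells of the whole ischemia library and 6 of the whole control library did. The CD-PC-like control cell with most mitosis UMIs had 18 of them, from 9 genes. The plot of single CD-PC-like cells shows a tail of cells with up to 22 genes in the ischemia panel.

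**Figure D3:**
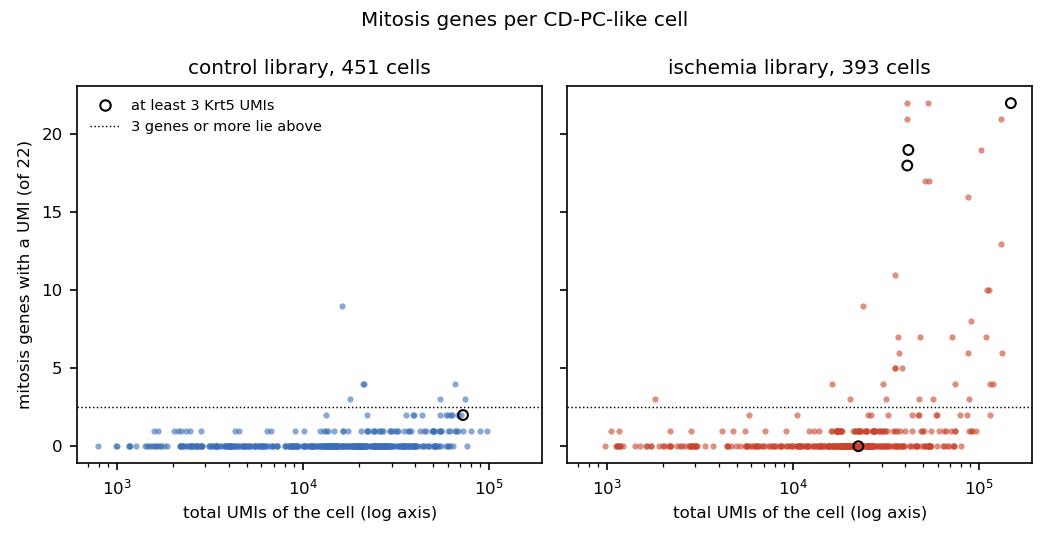
Number of the 22 mitosis genes with a UMI (y axis) against the total UMIs of the cell (x axis, log) for the 451 control and 393 ischemia CD-PC-like cells, each point a cell and each open circle a cell with at least 3 Krt5 UMIs. Above the dotted line lie cells with at least 3 of the genes, 7 in the control and 38 in the ischemia panel.

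The 38 cells were deep, with a median of 52405.5 UMIs against 19627 in the other 355 ischemia CD-PC-like cells, and their median share of mitochondrial UMIs was 7.47% against 15.7%. After thinning to 1000 UMIs, at least 2 mitosis genes were seen in 0 of 449 control and 8 of 392 ischemia CD-PC-like cells, 2.04%, and the summed ratio was 4.17. As a mean of each cell's CPM it was 4.57. Without the cells with at least 3 mitosis genes in either library, the mitosis genes were at 13.5 CPM (11.2–16.1) and 13.6 CPM (11.2–16.4), a ratio of 1.01 (0.778–1.32). In the same remaining cells the S phase genes were at 79.3 and 130 CPM, a ratio of 1.64 (1.49–1.80). Since the cells were left out by their number of mitosis genes, the mitosis level of the remaining cells is lower by construction, and the ratio of 1.01 describes where the UMIs lay and is no separate measurement of the remaining cells.

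In the 38 cells Top2a was detected in 31 cells with 433 UMIs, Cdk1 in 28 with 172, Mki67 in 23 with 180 and Pclaf in 28 with 396. The same genes were at 0.837, 0.598, 0.359 and 2.03 CPM in the other 355 cells. Mcm6 was detected in 36 cells with 217 UMIs and Tyms in 35 with 222, and in the other cells they were at 12.4 and 16.1 CPM. The counts of some late mitosis genes rested on fewer cells: 104 of the 185 UMIs of Ube2c and 88 of the 171 UMIs of Cenpf came from 1 cell. Because the cells were picked by their mitosis genes, these values are a description.

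The markers of these cells were examined apart from the cell cycle genes. Aqp2, the water channel of principal cells, was detected in 31 of the 38 cells and was at 1409 CPM, against 1257 CPM in the other 355 ischemia cells and 2288 CPM in control CD-PC-like cells. Fxyd4, a regulator of the sodium pump in the collecting duct, was detected in 36 and was at 2042 CPM against 1121 CPM. Lcn2, a marker of tubule injury, was at 10248, 3884 and 834 CPM in the 38 cells, the other ischemia cells and the control cells. Hsd11b2, which shields the mineralocorticoid receptor, was at 447 CPM against 971 and 1359.5 CPM. Of these 3 principal cell markers, Aqp2 and Fxyd4 were thus at least as high in the 38 cells as in the other ischemia cells. Hsd11b2 was lower. All 7 markers of the CD-PC list together were at 4396 CPM in the 38 cells. They were at 4209 CPM in the other ischemia cells and 6622 CPM in control CD-PC-like cells. Most of the sum in the 38 cells was Aqp2 and Fxyd4. Without Aqp2 and Fxyd4, the sum of the list was lower in the 38 cells than in the other ischemia cells or the control cells. The near-equal sums of 4396 and 4209 CPM thus rested mainly on Fxyd4, at 2042 against 1121 CPM. Hsd11b2 was part of the lower remainder, and the other genes of that remainder are not given gene by gene. The kallikrein Klk1 was lower in the 38 cells, at 430, 9012 and 10951 CPM in the 38, the other ischemia and the control cells. The CDK inhibitor Cdkn1a was at 138, 45.2 and 13.3 CPM.

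Markers of other cells were also found. The 5 markers of urothelium together were at 210 CPM in the 38 cells against 9.45 CPM in the other ischemia CD-PC-like cells. Krt5, 1 of the 5, made 182 of the 210 CPM. The 10 macrophage markers were at 216 against 31.7 CPM. Krt5 and Krt14, keratins of basal epithelium, were detected in 3 of the 38 cells, each with at least 3 Krt5 UMIs and 18 or more mitosis genes. Those 3 cells, among them the cell with 717 mitosis UMIs, held 931 mitosis UMIs, 40.1% of the total of the 38 cells. The macrophage gene C1qa reached 3 UMIs in 1 further cell. Without all cells with at least 3 UMIs of Krt5 or C1qa, the ratio in CD-PC-like cells was 7.82 (6.66–9.23) for the mitosis genes and 3.41 (3.16–3.69) for the S phase genes, and 34 cells with at least 3 mitosis genes were left. None of the 38 cells was among the 8% with the highest doublet scores, but the doublet caller itself called 0 cells and so identified no doublets in these libraries. The 9 markers of T and NK cells were at 0 in the 38 cells. The 6 markers of injured tubule were at 11333 CPM in the 38 cells against 4609 CPM in the other ischemia CD-PC-like cells. Lcn2 alone made 10248 and 3884 CPM of these. The 7 markers of DCT-CNT were at 972 against 11482 CPM, of which Klk1 made 430 and 9012 CPM. The 8 markers of intercalated cells (CD-IC) were at 1719, 1900.35 and 3002 CPM in the 38 cells, the other ischemia cells and the control CD-PC-like cells. With a clustering resolution of 0.6 in place of 0.3, the CD-PC-like cluster held 656 cells in place of 844, and a CD-IC-like cluster of 189 cells, with Aqp6, Kit and Slc4a1 among its leading genes, appeared beside the CD-IC-like cluster already present. The CD-PC-like ratios at that resolution were 12.8 for the mitosis and 3.69 for the S phase genes. What part the markers of other cells and the greater depth of the 38 cells had in the mitosis values beyond these counts was not tested.

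Outside the CD-PC-like cells the difference in mitosis genes was smaller. In all other cells together the mitosis genes were at 17.4 CPM in the control and 24.5 CPM after ischemia, a ratio of 1.41 (1.33–1.49), and the S phase genes at 72.3 and 121 CPM, a ratio of 1.67 (1.62–1.71). Of the 36 genes 11 were then past 2-fold higher, where 9.6% of the genes tested were, and 0 were lower, where 4.62% were. The 5 S phase genes among the 11 were Pclaf (3.27), Mcm5 (3.43), Mcm3 (3.07), Mcm4 (2.60) and Mcm2 (2.17). The 6 mitosis genes were Cdk1 (3.31), Aurkb (2.94), Tpx2 (2.85), Top2a (2.60), Aurka (2.04) and Prc1 (2.01). Mki67 was no longer past 2-fold, with 1.06 and 1.24 CPM and a ratio of 1.17 (0.915–1.502), and Rrm2 was at 1.31 CPM in both libraries. Of the 2005 control and 2885 ischemia mitosis UMIs outside CD-PC-like cells, macrophage-like cells held 277 and 797. Their cells numbered 288 and 577, and their own ratio was 0.961. B-like cells held 9 and 132, with 114 in 1 ischemia cell. What part these types had in the ratio of 1.41 was not tested.

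S phase genes were higher in the ischemic kidney in most cell types. The summed ratio was 1.57 (1.51–1.64) in PT-like cells, 1.52 (1.38–1.68) in cells of the thick ascending limb (TAL-like), 1.67 (1.48–1.88) in cells of the distal convoluted and connecting tubule (DCT-CNT-like), 1.49 (1.36–1.63) in endothelial (EC-like) cells and 1.51 (1.34–1.71) in macrophage-like cells. It was 1.38 (1.15–1.66) in thin limb-like, 1.35 (1.12–1.62) in pericyte and stroma-like and 1.85 (1.33–2.62) in T and NK-like cells. In neutrophil-like cells, with 33 control and 207 ischemia cells, it was 0.439 (0.307–0.633). Mitosis genes showed no such shared direction. Their ratio was 1.04 (0.937–1.16) in PT-like and 0.961 (0.837–1.11) in macrophage-like cells, above 1 in TAL-like, EC-like and thin limb-like cells, and below 1 in DCT-CNT-like, pericyte and stroma-like and T and NK-like cells.

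**Figure D4:**
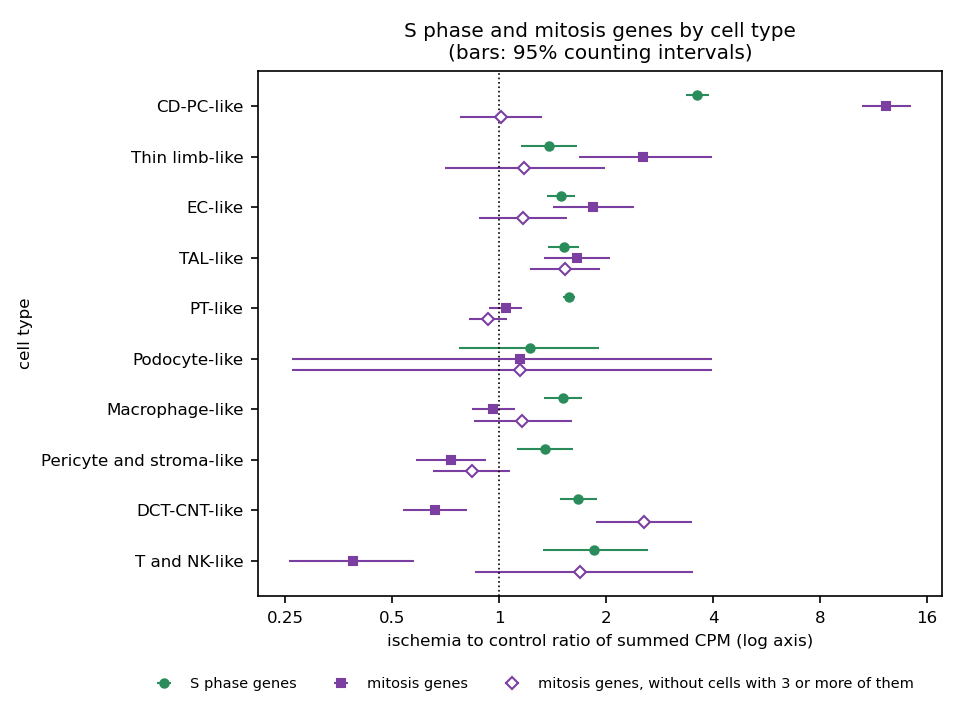
Ratio of summed CPM, ischemia to control (x axis, log), of the S phase genes (circles), of the mitosis genes (squares) and of the mitosis genes without cells with at least 3 of them (open diamonds) in each cell type with at least 50 cells per library (y axis), with 95% counting intervals. CD-PC-like cells reach 12.3 with all cells and 1.01 without those cells, whereas S phase ratios lie between 1.22 and 3.61.

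Podocytes do not usually divide, so their values served as a background. Podocyte-like cells, with a median of 4770 and 2327.5 UMIs, had S phase genes at 74.3 CPM (57.9–93.9) in the control and 91.0 CPM (61.4–130) after ischemia, a ratio of 1.22 (0.771–1.90). Their mitosis genes were at 10.6 CPM (5.09–19.5) and 12.1 CPM (3.31–31.1). After thinning, at least 1 S phase gene was seen in 10.0% and 11.3% of them. These intervals are wide, since they rest on 70 and 30 S phase UMIs and on 10 and 4 mitosis UMIs. PT-like cells had S phase genes at 66.6 and 105 CPM and mitosis genes at 10.8 and 11.3 CPM, within the podocyte intervals, so a level above this background could not be told for them at this depth. The same held for TAL-like cells, with S phase genes at 60.4 and 91.7 CPM and mitosis genes at 12.8 and 21.2 CPM. In DCT-CNT-like cells the S phase genes, at 54.2 and 90.5 CPM, were also not above the podocyte intervals. Their mitosis genes, at 29.5 and 19.4 CPM, lay above them in the control only. EC-like cells, at 143 and 213 CPM, and macrophage-like cells, at 176 and 266 CPM, lay above the podocyte intervals for S phase genes. The unnamed low-depth cells, with a median of 905 and 804 UMIs, had a ratio of 1.96 (1.77–2.18) for S phase genes, from 73.4 to 144 CPM. A part of free RNA in the ratios of other types was not tested.

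Within PT-like cells, 8 of the 31 genes tested were past 2-fold higher, where 8.03% of all genes were, and 1 was lower, where 4.41% were. The replication licensing genes led. Mcm3 went from 1.07 to 4.54 CPM, a ratio of 4.24 (3.24–5.61), Mcm5 from 1.32 to 5.203 CPM, a ratio of 3.93 (3.09–5.06), Mcm4 from 2.03 to 6.27 CPM, a ratio of 3.09, and Mcm2 from 3.20 to 7.22 CPM, a ratio of 2.26. Mcm6, at 6.77 and 9.26 CPM, and Mcm7, at 7.98 and 14.4 CPM, were below 2-fold, and the 6 subunits together went from 22.4 to 46.9 CPM. Tyms, at 16.7 and 17.1 CPM, and Tk1, at 2.38 CPM in both, were level in both libraries. Pcna had 18.4 and 28.9 CPM and Pclaf 0.472 and 1.002 CPM, ratios of 1.57 and 2.12. Rrm2 was sparse, at 0.504 and 0.679 CPM.

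Among mitosis genes in PT-like cells, Cdk1 had 12 and 46 UMIs, a ratio of 3.93 (2.05–8.16), Tpx2 17 and 47 UMIs, a ratio of 2.84, and Top2a 23 and 49 UMIs, a ratio of 2.19 (1.31–3.76). In the other direction, Cenpf had 52 and 19 UMIs, a ratio of 0.375 (0.209–0.645), Mki67 40 and 22 UMIs, a ratio of 0.565 (0.320–0.973), Kif11 44 and 23 UMIs, a ratio of 0.537 (0.309–0.908), and Nusap1 213 and 153 UMIs, a ratio of 0.737. The share of cells with these genes was not lower: Cenpf was detected in 0.669% of control and 0.709% of ischemia cells, and Mki67 in 0.775% and 0.851%. Kif11 was detected in 0.669% and 0.946%, and Nusap1 in 6.48% and 6.52%. By UMIs, the mitosis genes of PT-like cells thus differed in both directions. At least 3 of them were detected in 12 of 2839 control and 39 of 2115 ischemia PT-like cells, but the ischemia cells were deeper, with a median of 29979 against 20742 UMIs. The ischemia cell with most had 12 mitosis UMIs from 7 genes, against 48 from 17 genes in the control. After thinning, at least 2 were seen in 4 of 2807 control and 0 of 2102 ischemia PT-like cells.

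Hmgb2 and Stmn1 parted between cell types. Hmgb2 had 36.7 and 40.6 CPM in PT-like cells, 68.3 and 86.8 CPM in EC-like cells, and 252 and 209 CPM in macrophage-like cells, where its ratio of 0.830 (0.744–0.928) was below 1. Stmn1 had 31.8 and 57.7 CPM in PT-like cells, a ratio of 1.82, but 21.2 and 20.0 CPM in EC-like cells, a ratio of 0.942 (0.724–1.23). Ccnb1 was sparse in every type, with 9 and 19 UMIs in PT-like, 0 and 2 in EC-like and 4 and 13 in macrophage-like cells.

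Havcr1, which encodes the injury marker KIM-1, was used to split the ischemia PT-like cells. The 962 cells with at least 200 CPM of Havcr1 had S phase genes at 101 CPM (97.2–105) and mitosis genes at 11.8 CPM (10.6–13.2). The 1153 cells under that level had 108 CPM (105–112) and 10.9 CPM (9.79–12.0). PT-like cells with high Havcr1 did not have more of either group beyond these intervals.

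In TAL-like cells 5 of 14 genes tested were past 2-fold higher, where 9.17% of all genes were, and 1 was lower, where 8.2% were. Mcm6 went from 4.33 to 15.1 CPM, a ratio of 3.49 (2.51–4.94), Stmn1 from 4.52 to 14.0 CPM, a ratio of 3.09, Mcm4 from 3.17 to 7.55 CPM, a ratio of 2.38, Hmgb2 from 38.0 to 86.5 CPM, a ratio of 2.28, and Mcm5 from 1.35 to 2.94 CPM, a ratio of 2.18. The gene that was lower was Rrm2, with 48 and 18 UMIs, a ratio of 0.310 (0.170–0.542). Kif23, which acts in cytokinesis, held 87 of the 133 control mitosis UMIs of these cells and 167 of the 267 ischemia UMIs, while Mki67 had 1 and 4 UMIs and Cdk1 0 and 1. Pcna had 19.4 and 31.7 CPM, Mcm2 3.46 and 5.32 CPM and Tyms 10.7 and 9.14 CPM. Pclaf had 2 and 8 UMIs, Top2a 2 and 1, Kif11 2 and 2, Ccnb1 2 and 3 and Nusap1 13 and 15, all with ratio intervals that included 1. Most of the mitosis UMIs of TAL-like cells thus came from 1 gene. Its own ratio was 1.59 (1.22–2.08), beside the mitosis ratio of 1.66 (1.34–2.06) of these cells. Cells with at least 3 mitosis genes held 9 of the 133 and 40 of the 267 UMIs, and without them the ratio was 1.53 (1.22–1.92). With a mitochondrial limit of 25% and no such cells left out it was 1.33, and the S phase ratio was 1.05.

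In DCT-CNT-like cells 7 of 18 genes tested were past 2-fold higher, where 7.66% of all genes were, and 3 were lower, where 5.6% were. Mcm7 went from 3.25 to 10.6 CPM, a ratio of 3.25 (2.10–5.16), Mcm4 had a ratio of 2.74, Mcm5 of 2.71, Mcm6 of 2.32, Mcm2 of 2.26, Kif23 of 2.25 and Stmn1 of 2.12. The genes that were lower were Cenpf, with 39 and 1 UMIs, Cenpa, with 18 and 3, and Mki67, with 27 and 8. Pcna had 17.3 and 34.2 CPM, a ratio of 1.98, and Hmgb2 47.3 and 60.4 CPM. Rrm2, at 2.80 and 1.45 CPM, and Tyms, at 11.8 and 8.86 CPM, had intervals of the ratio that included 1. Pclaf had 4 and 6 UMIs, Top2a 1 and 2, Cdk1 5 and 3, Ccnb1 4 and 3, Nusap1 12 and 8 and Kif11 11 and 3. A single control cell with 20 of the mitosis genes held 195 of the 263 control mitosis UMIs of this type. Without cells with at least 3 mitosis genes, 2 in the control and 3 after ischemia, the mitosis ratio of DCT-CNT-like cells was 2.55 (1.88–3.496) in place of 0.659 (0.535–0.810).

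In EC-like cells 4 of 16 genes tested were past 2-fold higher, where 2.47% of all genes were, and 0 were lower, where 4.85% were. They were Top2a, with 3 and 20 UMIs, a ratio of 5.12 (1.52–26.9), Mcm5, from 1.60 to 6.92 CPM, a ratio of 4.32, Cdk1, with 4 and 22 UMIs, a ratio of 4.23, and Tyms, from 21.2 to 43.7 CPM, a ratio of 2.06 (1.64–2.60). Top2a and Cdk1 reached the 20 UMIs for testing only through the ischemia library. Pcna differed less, with 49.2 and 59.5 CPM, a ratio of 1.21, and Mcm6, at 13.6 and 26.8 CPM, was just below 2-fold. Mcm2 had 4.804 and 7.69 CPM. Pclaf had 3 and 13 UMIs, Rrm2 4 and 11, Mki67 2 and 7, Nusap1 11 and 10 and Kif11 4 and 10, with ratio intervals that included 1. At least 3 mitosis genes were detected in 0 of 908 control cells, with an upper interval limit of 0.405%, and in 6 of 1045 ischemia cells, 0.574%. All 6 also had at least 3 S phase genes. Without them the mitosis ratio was 1.16 (0.876–1.55) in place of 1.84 (1.42–2.39).

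Macrophage-like cells carried mitosis genes in both libraries, at 155 CPM (137–174) in the control and 149 CPM (138–159) after ischemia. Their number was 288 in the control and 577 after ischemia, and at least 3 mitosis genes were detected in 6 of them, 2.08%, and in 16, 2.77%. Of 32 genes tested 2 were past 2-fold higher, where 5.33% of all genes were, and 2 were lower, where 6.88% were. Both counts are near the share of all genes. The higher genes were Mcm2, from 5.58 to 13.4 CPM, a ratio of 2.40 (1.23–5.23), and Pclaf, from 6.14 to 12.5 CPM, a ratio of 2.03 (1.07–4.27). The lower genes were Cenpf, at 11.2 and 4.10 CPM, a ratio of 0.367, and Ccnb2, at 8.37 and 3.35 CPM, a ratio of 0.401. Mki67 had 13.4 and 11.6 CPM, Top2a 20.1 and 24.6 CPM and Ube2c 22.3 and 12.9 CPM. Cdk1 had 5.02 and 9.69 CPM, Nusap1 5.58 and 5.22 CPM, Kif11 5.58 and 3.73 CPM and Stmn1 37.9 and 41.6 CPM. Of the other S phase genes, Pcna had 49.1 and 78.1 CPM, Mcm6 26.2 and 33.7 CPM and Tyms 7.25 and 11.6 CPM, and Rrm2 had 1 and 12 UMIs, a ratio of 4.01 (0.593–171). The 6 control cells held 224 of 277 mitosis UMIs, 117 of them in 1 cell, and the 16 ischemia cells 617 of 797.

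In T and NK-like and in B-like cells the mitosis values rested mainly on single cells. In T and NK-like cells 1 control cell with 15 mitosis genes held 60 of 73 UMIs, and without cells with at least 3 mitosis genes the ratio of 0.388 (0.257–0.578) became 1.69 (0.853–3.52). In B-like cells, with 41 cells per library, 1 ischemia cell with 21 mitosis genes held 114 of 132 UMIs, and without it the ratio of 10.6 (5.40–23.6) became 1.66 (0.707–4.19). In thin limb-like cells 9 of 76 ischemia cells and 0 of 88 control cells had at least 3 mitosis genes. The ratio there was 2.54 (1.67–3.98), and 1.18 (0.702–1.99) without the 9 cells. Kif23 alone held 15 of the 29 control and 50 of the 106 ischemia mitosis UMIs of this type. The 9 cells were deep, with a median of 63875 UMIs. The medians of all thin limb-like cells were 11350 UMIs in the control and 19044 after ischemia. The plot by gene and type shows the ratios of single genes.

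**Figure D5:**
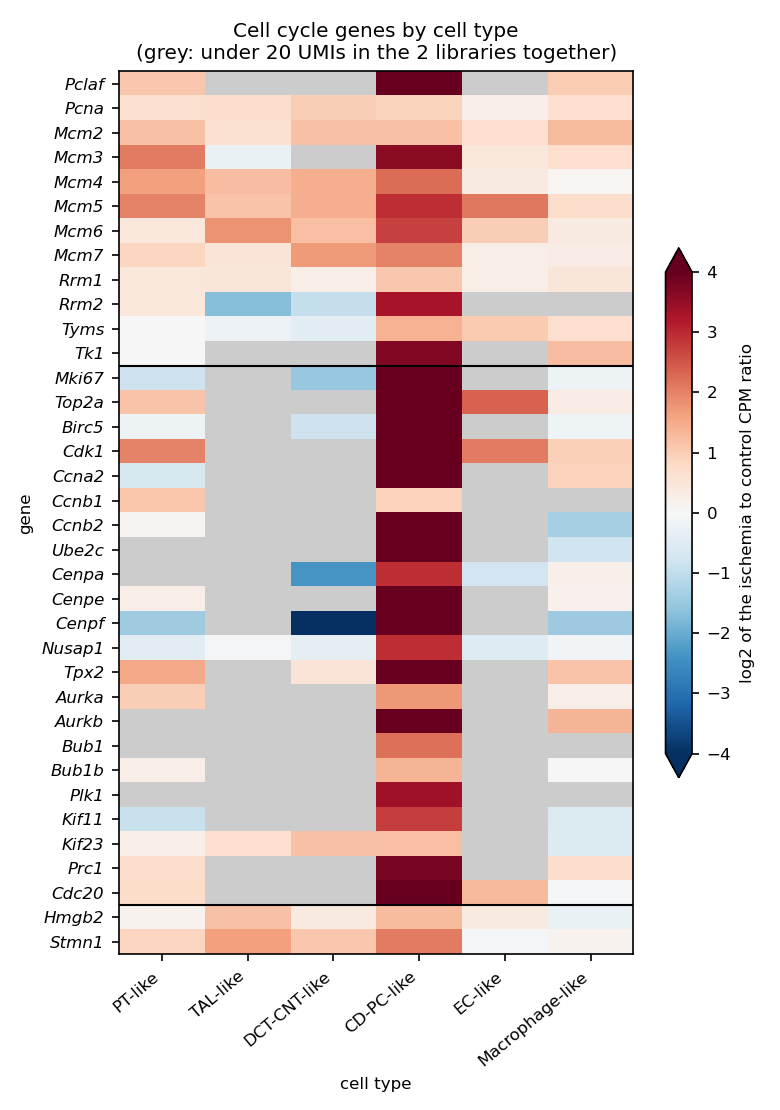
Ischemia to control ratio of CPM as log2 (colour, limited to 4 in either direction) for each of the 36 genes (y axis, with lines between the S phase genes, the mitosis genes and Hmgb2 and Stmn1) in 6 cell types (x axis), grey where a gene had under 20 UMIs in the 2 libraries together. The CD-PC-like column is above 0 for all 36 genes, and Plk1 is drawn there at 10.6-fold, its value with 3 control UMIs allowed.

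Genes that steer entry into the cycle were taken from fixed lists, whose counts stand beside 9.63% of all genes past 2-fold higher and 4.52% lower. Of 9 G1 cyclins and kinases, 1 was past 2-fold higher, Ccne1, the cyclin of S phase entry, with 0.241 and 0.847 CPM and a ratio of 3.52 (2.33–5.46). A count of 1 in 9 is near the share of all genes. Ccnd1, the cyclin that answers growth signals, was lower, with 198 and 128 CPM, a ratio of 0.646. In TAL-like cells it had 487 and 51.9 CPM, a ratio of 0.106 (0.0980–0.116), while in EC-like cells it had 165 and 176 CPM. Its partner kinase Cdk4 had 30.9 and 52.1 CPM, a ratio of 1.69. Of 7 CDK inhibitors, 2 were higher and 1 was lower. Cdkn1a, the p53 target p21, had 19.6 and 58.1 CPM, a ratio of 2.97 (2.84–3.11), and was past 2-fold in PT-like, TAL-like, DCT-CNT-like, CD-PC-like, thin limb-like and macrophage-like cells. Cdkn1b had 25.3 and 23.6 CPM. Cdkn1c, with 58.7 and 19.8 CPM, was mainly a gene of the podocyte-like cells, in which it had 7160.5 and 6181 CPM.

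Of 18 E2F, pocket and mitotic transcription factors, 3 were past 2-fold higher: E2f7, E2f8 and Foxm1, the factor of mitosis genes, with 0.160 and 0.520 CPM, a ratio of 3.24 (1.94–5.65). E2f1, a driver of S phase genes, had 1.67 and 3.21 CPM, a ratio of 1.92. In CD-PC-like cells it had 6 and 65 UMIs, 0.643 and 5.97 CPM, a ratio of 9.28. Its level was higher in podocyte-like cells, at 31.9 and 66.8 CPM from 30 and 22 UMIs, a ratio of 2.10 (1.15–3.76). Of 30 further replication genes 12 were higher, among them Uhrf1 (5.34), Chaf1b (4.76) and Cdc6 (4.33). Of 52 further mitosis genes 31 were higher, among them Ncapg (4.42), Sgo2a (4.08) and Cenph (4.08). Of 11 checkpoint and repair genes 5 were higher, among them Exo1 (5.47) and Pkmyt1 (4.81). None of these 3 lists had a gene past 2-fold lower. The counts of all these lists are over all kept cells, CD-PC-like cells included, and are not given without them. For the 36 genes, leaving those cells out changed the number past 2-fold higher from 21 to 11. The median ratio was 1.85 for the replication list, 2.40 for the mitosis list and 1.72 for the checkpoint list, beside 1.10 for all genes tested.

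The genes on no list that were highest, relative to the remaining cells, in the 170 cells with at least 3 mitosis genes, of both libraries together, fell into 3 kinds. Esco2, which acts in sister chromatid cohesion, was detected in 35 of the 170 cells and was at 13.8 CPM against 0.0772 CPM in the other cells. Cep55, which acts in abscission, was detected in 26 and Aunip in 35. The replication-dependent histones Hist1h1b, Hist1h3c and Hist1h2ae were each detected in 23, Hist1h1b at 79.7 against 0.678 CPM. The others rested on few cells: the keratins Krt14 and Krt4 on 4 cells and Krt5 on 6, and the immunoglobulin gene Ighg3 on 2 cells with 2697 UMIs.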

How the data were processed

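Each library had a deposited matrix of raw UMI counts per gene and barcode, which the authors made with Cell Ranger 7.0.0 on mm10 per the labels. The annotation version is not given in the sources used here. Barcodes were dropped below 200 genes, outside 500 to 150000 UMIs, or above 55% of mitochondrial UMIs. Clusters came from Seurat 5.3.0 in R 4.3.3 (2000 variable genes without cell cycle genes, anchor integration, 30 components, resolution 0.3), and names went by the mean log2 ratio of each marker list, with at least 3 of its markers detected. A name also needed at least 1 marker of the chosen list among the cluster's 10 leading genes, and more there than any other list had. The unnamed clusters 3 and 5, of 1591 and 1106 cells, scored best for TAL and PT. They had 1 and 0 such markers among their leading genes and did not meet this condition. Their cells are thus not in the TAL-like and PT-like values. This naming, and that hemoglobin names no cluster, was set after seeing the data. Scrublet (scanpy 1.11.5) called 0 doublets, and none were removed.

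The counts were summed per library and type. Intervals are exact Poisson, Clopper-Pearson and, for ratios, conditional binomial. The calls and the thinning (Python 3.11.15, scipy 1.17.1) were tested on simulated data. PCR duplicates are removed by UMIs, but cells of 1 library are not independent. The 36 genes, lists and tests were chosen with earlier results of these data known. All 36 genes are accounted for. Those given in the 6 larger named cell types (PT, TAL, DCT-CNT, CD-PC, EC and macrophage) are 12 fixed genes, the 3 highest and 3 lowest ratios among genes with 50 UMIs, and those past 2-fold. From other lists, 8 fixed regulators and up to 3 genes per list with the ratio furthest from 1 are named. Of unlisted genes, the 10 highest in cells with at least 3 mitosis genes are named. Genes named beyond this rule were chosen after their values were seen. Alternatives changed filters, doublets, depth, weighting, scaling, clustering and call limits. The positions printed are on GRCm38, the same assembly as mm10.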

Additional observations from a re-analysis of the deposited data

Results flagged for a closer look

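The ratio of the mitosis genes lay above 1 in some cell types and below 1 in others, each with an interval that excluded 1. Only types and clusters with at least 50 cells per library are listed here. B-like cells, with 41 per library, were at 10.6 (5.40–23.6). Above 1 were CD-PC-like cells (12.3), thin limb-like cells (2.54), EC-like cells (1.84), TAL-like cells (1.66) and the unnamed low-depth cluster 0 (1.65). Below 1 were T and NK-like cells (0.388), the unnamed cluster 3 (0.623), DCT-CNT-like cells (0.659) and pericyte and stroma-like cells (0.732). The difference between cell types was not tested, since each condition has 1 library and cells are not replicates. In the 4 cell types or clusters below 1, the control library held 4 cells with at least 3 mitosis genes among pericyte and stroma-like cells, 3 in cluster 3, 2 among DCT-CNT-like cells and 1 among T and NK-like cells. Without such cells the ratios were 0.836 (0.652–1.07), 3.22 (1.78–6.05), 2.55 (1.88–3.496) and 1.69 (0.853–3.52). Leaving cells out by their mitosis genes lowers the remaining level by construction.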

How the results depend on the processing

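The ratio of the mitosis genes over all cells, 2.37, was 1.90 with a mitochondrial limit of 25%, 1.47 as a mean of each cell's CPM, 1.31 after thinning to 1000 UMIs, 2.16 after division by the median gene ratio and 1.41 without CD-PC-like cells. The S phase ratio, 1.87, was 1.70, 1.79, 1.66, 1.70 and 1.67 in the same order. The share of control cells with at least 3 mitosis genes became 0.0664% when thinned. In the ischemia library it became 0.101% when thinned and 1.62% with a minimum of 1000 UMIs. For at least 3 S phase genes, the control share became 4.75% with the limit of 25%, 7.74% with 1000 UMIs and 0.0443% thinned, and the ischemia share 8.73%, 16.2% and 0.266%, and 10.4% without the 8% highest doublet scores. In CD-PC-like cells the S phase ratio of 3.61 became 2.73 as a mean of CPM, 3.20 thinned and 1.64 without cells with at least 3 mitosis genes, and the mitosis ratio of 12.3 became 4.57, 4.17 and 1.01, and 7.82 without Krt5 or C1qa cells. Clustering without integration gave no CD-PC-like cluster. Aqp2, Hsd11b2 and Fxyd4 were then leading genes of an unnamed cluster of 1493 cells that scored best for DCT-CNT. The CD-PC-like ratios thus have no value for that setting. Of the 36 genes, 32 were past 1.5-fold, as were 18.0% of all genes, and 11 past 2-fold without CD-PC-like cells, in place of 21. The mitosis ratio changed direction in DCT-CNT-like cells, from 0.659 to 1.06 as a mean of CPM and 2.55 without cells with at least 3 mitosis genes, and in T and NK-like cells, from 0.388 to 1.69 without such cells. Other causes of these changes were not tested. Settings that left out CD-PC-like cells, mitosis-rich cells or Krt5 and C1qa cells were chosen after seeing the data. No paired analysis was possible because each condition had 1 library. Depth limited what single cells could show, and no replicate measured the spread between animals.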
